A study of Homo sapiens with 8 samples.

Results

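The chemokines that guide immune cells into and within lymph nodes and the receptors that read them were followed in melanoma-bearing lymph nodes from mice given doxycycline or its vehicle. The genes were the 4 ligands CXCL13, CCL19, CCL21 and CXCL12 and the 3 receptors CCR7, CXCR5 and CXCR4. They were named for this purpose by symbol, each was matched by 1 probe set in the platform annotation, and together they made up 7 of 17491 genes measured. The hosts were athymic BALB/c nude mice with subcutaneous tumours grown from the human skin melanoma line SkMel147, in which doxycycline in the drinking water served to induce Omomyc, a dominant-negative form of the transcription factor MYC. Doxycycline (4 mice) or vehicle (4 mice) was given once tumours reached about 750 mm3. Nodes found to carry metastases by imaging were taken 2 days later. All 8 nodes therefore came from the same tumour line and the same strain, and the groups differed by doxycycline alone, so an effect of the drug itself and of Omomyc cannot be told apart here. Whole nodes were homogenized and hybridized to human Affymetrix arrays, 1 array per sample, so human tumour RNA and mouse host RNA shared each array.

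Chemokines are small secreted proteins that bind G protein-coupled receptors and set the direction of cell movement. In a lymph node, CXCL13 from follicular stromal cells draws CXCR5-bearing B cells into follicles, while CCL19 and CCL21 from fibroblastic reticular cells and lymphatic or high endothelium draw CCR7-bearing T cells and dendritic cells into the T cell zone. CXCL12 acts through CXCR4 on many cell types and also binds the atypical receptor ACKR3, and CXCR4 and CCR7 have both been studied on melanoma cells that spread to nodes. In a mixed node a value on a human probe can come from tumour or host, and how well these probes read mouse transcripts was not measured.

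Values are log2 expression after RMA, a standard background correction, between-array normalization and probe summary, and array medians lay between 5.07 and 5.12. Vehicle replicate 1 stood apart from the other arrays, with a mean correlation of 0.941 to the other 7 across genes, against 0.969 to 0.974 for the others, so the members' differences are also given without it. The labelled tissue was set beside marker lists of B cells, T cells, macrophages and melanoma. Of all 17491 genes, 8735 averaged above the array medians. The marker counts therefore cannot establish the tissue, and how well the probes read mouse transcripts was not measured. Of 8 measured B cell markers 5 averaged above the array medians, CD79B, a B cell receptor subunit, being the brightest at 8.71, while MS4A1, the CD20 gene, averaged 3.46 with vehicle and 3.55 with doxycycline. Of 10 T cell markers 2 averaged above the array medians, and CD3D, a T cell receptor subunit, lay between 3.40 and 4.32. T cell list means were 4.11 to 4.49 with vehicle and 4.24 to 4.44 with doxycycline. Of 9 measured melanoma markers 7 averaged above the array medians, while TYR and TYRP1, the pigment enzyme genes, averaged below them. Melanoma list means were 5.20 to 5.53 with vehicle and 5.48 to 5.54 with doxycycline, vehicle replicate 1 being the lowest. The difference was above 0 for 8 melanoma markers and below 0 for 1, beside 55.5% of all genes above 0. Their median difference was 0.11 on the log2 scale, and 0 were called. Of 10 macrophage markers 8 averaged above the array medians, and list means were 5.88 to 5.99 with vehicle and 5.98 to 6.02 with doxycycline. In the T cell and macrophage lists alike, 6 markers had a difference above 0 and 4 below.

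None of the 7 genes changed with doxycycline by the test over all genes. CXCL13 had the highest difference, 1.44-fold higher with doxycycline, and CXCR4 the lowest, at 0.785 of its vehicle level, and the other 5 lay between these. Of 17491 genes, limma called 0 at an adjusted p under 0.05 (0%), and 665 (3.8%) had an unadjusted p under 0.05, among them CXCL13 and CXCR4. The groups of no member were fully separate, which was so for 2.62% of all genes. The difference was above 0 for 4 of the 7 members, beside 55.5% of all genes, and the members' median difference was 0.050 on the log2 scale, beside 0.021 over all genes. The 95% intervals of the 7 differences together ran from -0.67 to 0.87, so a change of 1 log2 unit in probe signal lay outside each of them. These intervals were not adjusted over genes. They do not bound a change in mouse transcripts, since how well the probes read those was not measured. In whole nodes, more cells of a type and more RNA per cell cannot be told apart.

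**Figure D1:**
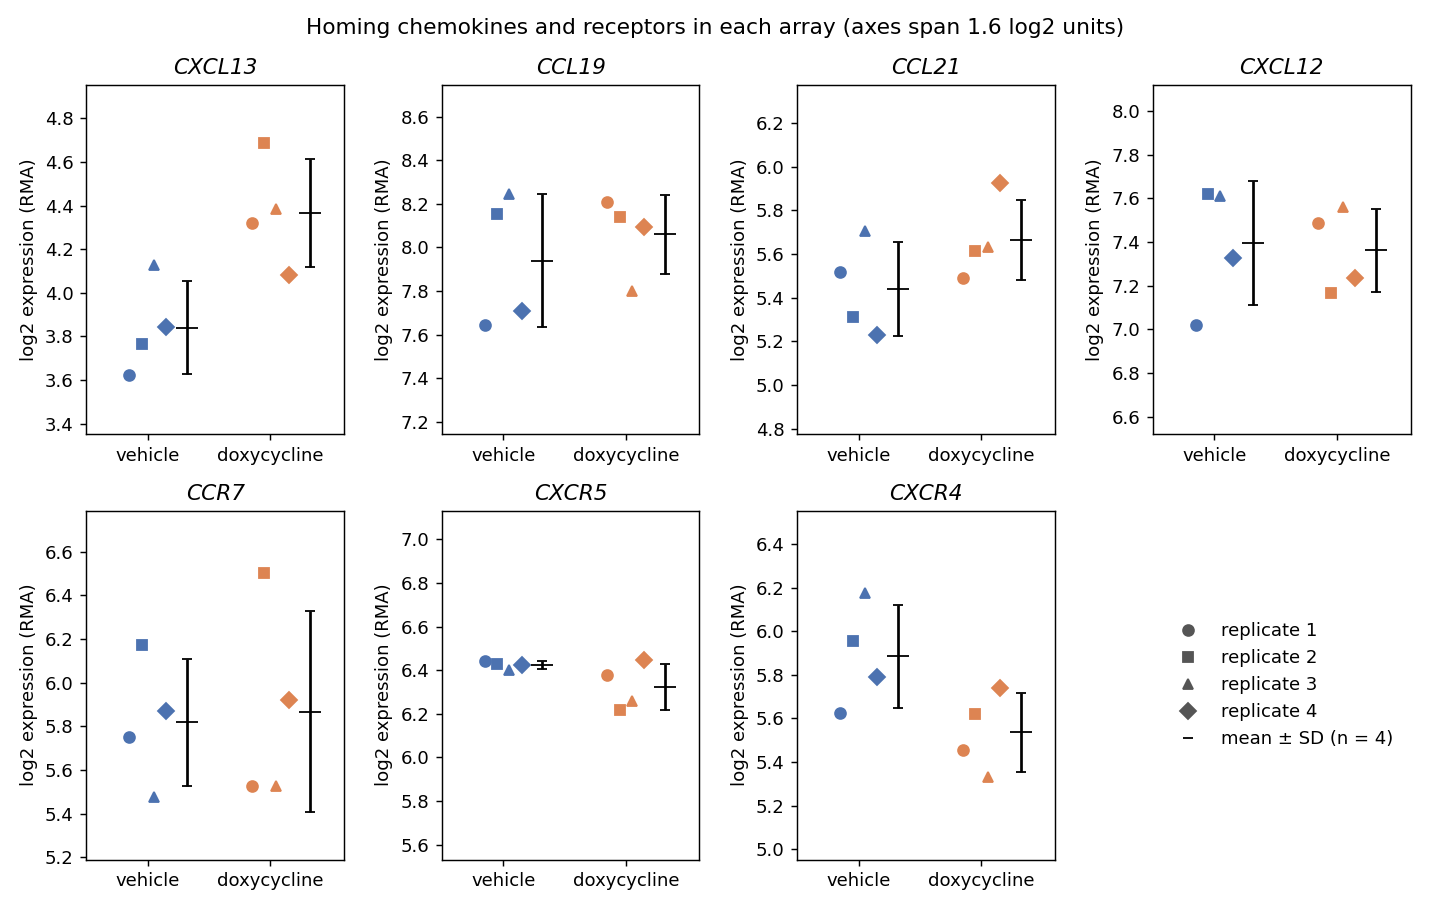
Log2 expression (RMA) of each gene in the 4 vehicle arrays (blue) and the 4 doxycycline arrays (orange), with marker shape giving the replicate and the black bar the mean ± SD. CXCL13 was above the highest vehicle array in 3 of 4 doxycycline arrays, and the 4 vehicle values of CXCR5 nearly coincide.

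CXCL13, the B cell-attracting ligand of follicles, was at 3.62, 3.76, 4.13 and 3.84 in vehicle replicates 1 to 4 and at 4.32, 4.68, 4.38 and 4.08 in doxycycline replicates 1 to 4. Of the 4 doxycycline arrays 3 lay above every vehicle array, and doxycycline replicate 4 fell just under vehicle replicate 3. The means were 3.84 ± 0.21 (SD, n = 4) and 4.37 ± 0.25 (SD, n = 4). The log2 difference was 0.53 ± 0.16 (SE), with a 95% interval from 0.19 to 0.87, or 1.14-fold to 1.83-fold. CXCL13 did not pass over all genes (limma adjusted p = 0.987), although its unadjusted p of 0.00544 was the 40th smallest of 17491. By exact permutation of the 70 ways to split the arrays 4 against 4, its two-sided p was 0.0571, and such a split can reach no less than 0.0286. All CXCL13 values lay below the array medians, and the difference was 0.46 without vehicle replicate 1, which held the lowest value.

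Markers of node stromal cells, follicular and reticular, were read beside CXCL13. Follicular dendritic cell markers (8 measured) had list means of 5.37 to 5.63 with vehicle and 5.46 to 5.62 with doxycycline, with 5 members above 0 and 3 below. Fibroblastic reticular cell markers (9 measured) had means of 5.27 to 5.56 and 5.49 to 5.60, with 5 members above 0 and 4 below and a median difference of 0.11. The highest of them was DES, the desmin gene, which muscle cells express as well as reticular cells, at 0.61 ± 0.19 (SE), with a limma unadjusted p of 0.0066, and the lowest was LTBR at -0.22 ± 0.15 (SE). The part of these cells in the CXCL13 values was not tested.

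CCL19, a CCR7 ligand of the T cell zone, was at 7.65, 8.15, 8.24 and 7.71 in vehicle replicates 1 to 4 and at 8.21, 8.14, 7.80 and 8.10 with doxycycline. All 4 doxycycline values fell inside the vehicle range. The log2 difference was 0.12 ± 0.16 (SE), with a 95% interval from -0.23 to 0.48 (limma adjusted p = 0.987), and it was 0.024 without vehicle replicate 1.

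CCL21, the second CCR7 ligand, displayed on high endothelium and lymphatic vessels, was at 5.52, 5.31, 5.71 and 5.23 with vehicle and at 5.49, 5.61, 5.63 and 5.92 with doxycycline. Only doxycycline replicate 4 exceeded the highest vehicle array, vehicle replicate 3. The log2 difference was 0.22 ± 0.15 (SE), with a 95% interval from -0.092 to 0.54 (limma adjusted p = 0.987), with 0.25 when vehicle replicate 1 was left out and 0.14 when doxycycline replicate 4 was. Blood and high endothelial markers (8 measured) had list means of 5.05 to 5.36 with vehicle and 5.25 to 5.37 with doxycycline, with 6 members above 0 and 2 below. TEK, the angiopoietin receptor gene, was the highest of them at 0.50 ± 0.16 (SE), the list median was 0.11, and FUT7, which builds selectin ligands, was at -0.071 ± 0.14 (SE). Lymphatic endothelial markers (7 measured) had means of 5.01 to 5.35 and 5.02 to 5.13, and the part of either vessel type in the CCL21 values was not tested. CCL19 and CCL21 are direct neighbours in the RefSeq human gene table, with 0 annotated genes between them. Mouse Ccl21 exists in near-identical copies that a human probe set cannot separate.

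CXCL12, a ligand made broadly by stromal cells, was at 7.02, 7.62, 7.61 and 7.33 with vehicle and at 7.49, 7.17, 7.56 and 7.24 with doxycycline. The 4 doxycycline arrays again lay inside the vehicle range. CXCL12 differed by -0.033 ± 0.16 (SE) on the log2 scale, with a 95% interval from -0.38 to 0.32 (limma adjusted p = 0.994). It was -0.16 without vehicle replicate 1, the lowest array for this gene, and turned above 0 when any of 4 other arrays was left out, up to 0.042.

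CCR7, the receptor of both T zone ligands, was at 5.75, 6.17, 5.47 and 5.87 with vehicle and at 5.52, 6.50, 5.52 and 5.92 with doxycycline. It was the most variable member, with an SD of 0.36 over the 8 arrays, where the median gene had 0.21. Doxycycline replicate 2 was the highest array, and doxycycline replicates 1 and 3 lay near the lowest vehicle array. CCR7 differed by 0.050 ± 0.22 (SE) on the log2 scale, with a 95% interval from -0.43 to 0.53 (limma adjusted p = 0.994), with 0.028 when vehicle replicate 1 was left out and -0.16 when doxycycline replicate 2 was. Dendritic cell markers (10 measured) cover a class of CCR7-bearing cells, and 8 of them were above 0 and 2 below. Their list means were 5.29 to 5.72 with vehicle, vehicle replicate 1 being the lowest, and 5.49 to 5.67 with doxycycline. T cell markers, which cover another class of CCR7-bearing cells, are given above.

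CXCR5, the CXCL13 receptor of B cells, was the least variable member. It was at 6.44, 6.43, 6.40 and 6.42 in the vehicle arrays and at 6.38, 6.22, 6.26 and 6.45 in the doxycycline arrays. The vehicle arrays thus spanned 0.044 log2 units and the doxycycline arrays 0.23, and 3 doxycycline arrays lay below and 1 above all vehicle arrays. The SD over the 8 arrays was lower in only 1.86% of genes. CXCR5 differed by -0.10 ± 0.11 (SE) on the log2 scale, with a 95% interval from -0.34 to 0.15 (limma adjusted p = 0.987), with -0.093 when vehicle replicate 1 was left out and -0.064 when doxycycline replicate 2 was. B cell markers (8 measured) had list means of 6.03 to 6.17 with vehicle and 6.07 to 6.17 with doxycycline, with 4 members above 0 and 4 below.

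CXCR4, the CXCL12 receptor, was at 5.62, 5.95, 6.17 and 5.79 with vehicle and at 5.45, 5.62, 5.33 and 5.74 with doxycycline. Doxycycline replicates 1 and 3 were clearly the lowest arrays, and doxycycline replicate 2 was level with vehicle replicate 1, the lowest vehicle array. The means were 5.88 ± 0.24 (SD, n = 4) and 5.54 ± 0.18 (SD, n = 4). CXCR4 differed by -0.35 ± 0.15 (SE) on the log2 scale, with a 95% interval from -0.67 to -0.026, which failed the threshold over all genes (limma adjusted p = 0.987; unadjusted p = 0.0366). The exact two-sided permutation p was 0.0571. Without vehicle replicate 1 the difference was -0.44, and without vehicle replicate 3, the highest array, it was -0.25. CXCR4 is expressed by tumour cells, leukocytes and endothelium alike, and these sources were not separated.

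**Figure D2:**
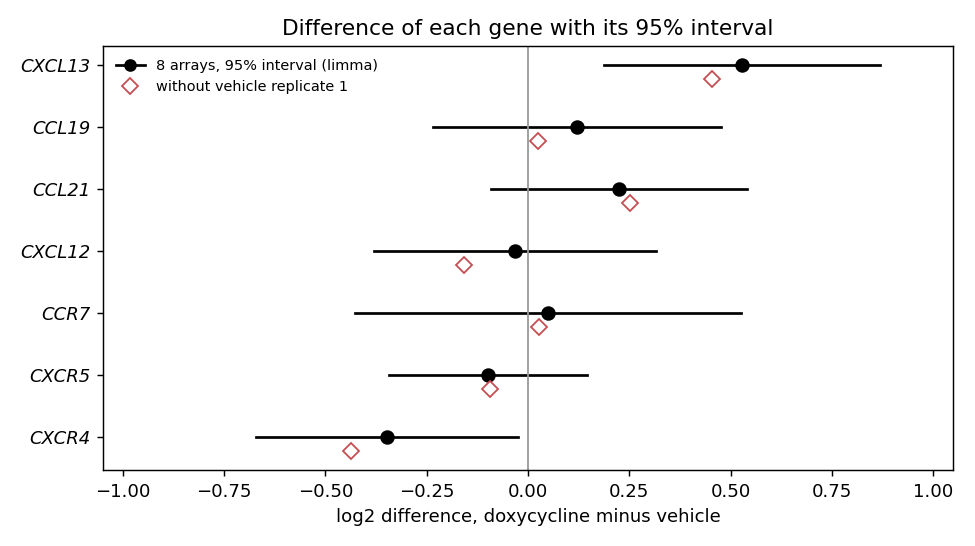
Log2 difference, doxycycline minus vehicle, of each gene over 8 arrays with its 95% interval (black), and the same difference without vehicle replicate 1 (open red diamonds). The intervals of CXCL13 and CXCR4 exclude 0 before adjustment over all genes, and those of the other 5 genes include it.

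Each ligand was then set against its receptor across the 8 arrays, in 4 pairs, with p-values adjusted over the pairs. The members were chosen with earlier results of these data known. The adjustment over 4 pairs does not account for that choice, so these p-values are given as a description. CXCL13 and CXCR5 ran in opposite directions: the arrays with the highest CXCL13, doxycycline replicates 2, 3 and 1, had the lowest CXCR5. Pearson's r was -0.87 (exact permutation p = 0.000794, adjusted p = 0.00317) and Spearman's rho was -0.86 (exact permutation p = 0.0107, adjusted p = 0.0429). With group means removed r was -0.80 (exact permutation within groups, p = 0.00521), so the relation was also present among arrays of the same group. Leaving out the 2 arrays farthest from the CXCL13 median, vehicle replicate 1 and doxycycline replicate 2, gave r = -0.74 (exact permutation p = 0.05, adjusted p = 0.200), so that the relation no longer passed in the 6 arrays left. The call was kept without vehicle replicate 1 alone (r = -0.87, adjusted exact permutation p = 0.0183). It was lost without doxycycline replicate 2 alone (r = -0.75, adjusted exact permutation p = 0.0817) and without vehicle replicate 4 (r = -0.86, adjusted exact permutation p = 0.0524). The CXCR5 side of the relation covers only 0.23 log2 units, which is the span of the doxycycline arrays, while the vehicle arrays span 0.044. The r with group means removed therefore rests mostly on the doxycycline arrays. Among all other genes, 0.543% had a correlation with CXCL13 at least as large in size, given as a description over the same 8 arrays.

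The other 3 pairs showed no relation that passed. CCL19 and CCR7 had r = 0.13 (exact permutation p = 0.755, adjusted p = 0.755) and rho = -0.17 (exact permutation p = 0.703, adjusted p = 0.703), with r = 0.15 without the 2 arrays farthest from the CCL19 median. CCL21 and CCR7 had r = -0.14 (exact permutation p = 0.734, adjusted p = 0.755) and rho = -0.26 (exact permutation p = 0.536, adjusted p = 0.703), with r = -0.34 without the 2 farthest arrays. CXCL12 and CXCR4 had r = 0.27 (exact permutation p = 0.520, adjusted p = 0.755) and rho = 0.36 (exact permutation p = 0.389, adjusted p = 0.703), with r = 0.18 without the 2 farthest arrays. The signs of all 3 turned in at least 1 fit with an array left out. The 20 pairs of members other than CXCL13 and CXCR5 had r between -0.39 and 0.50, as a description.

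**Figure D3:**
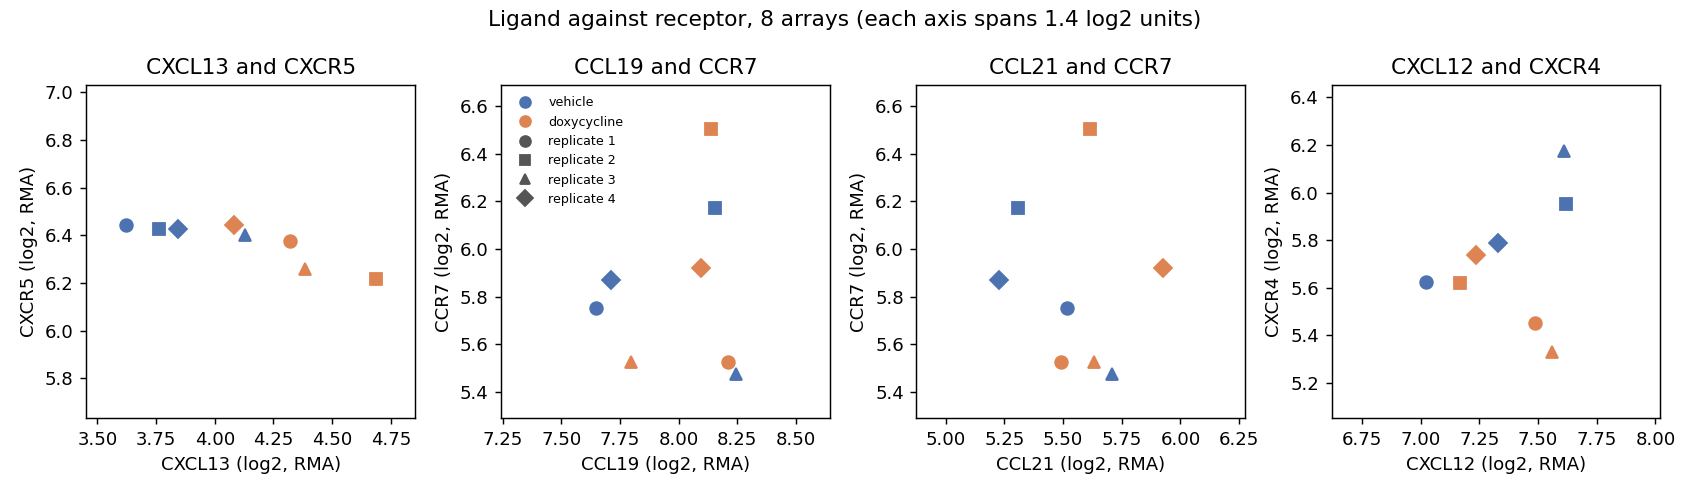
Receptor against ligand (log2 expression, RMA) for the 4 pairs, 1 point per array, with vehicle in blue, doxycycline in orange and marker shape giving the replicate. CXCR5 is at 6.22 to 6.38 in the 3 arrays highest in CXCL13 and at 6.40 to 6.45 in the other arrays. The other 3 pairs show no common slope over the 8 arrays.

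The rest of the chemokine system was read from 7 lists holding 126 measured genes, of which limma called 0 in either direction over all genes. At an unadjusted p under 0.05, 4 were higher and 2 lower with doxycycline, together 4.76%, beside 2.49% of all genes higher and 1.31% lower, and the median difference was 0.035. Among 18 other CXC, XC and CX3C ligands 9 were above 0 and 9 below. CXCL14, an epithelial and stromal chemokine, was at 4.96, 5.67, 6.07 and 6.16 with vehicle and at 6.32, 6.27, 6.26 and 6.73 with doxycycline. Its groups did not overlap, which was so for 2 of the 126 genes and for 2.62% of all genes. The CXCL14 difference of 0.68 ± 0.23 (SE) was 0.43 without vehicle replicate 1, the lowest array. CXCL8, the neutrophil attractant interleukin-8, which mice lack, was at 6.83, 4.58, 4.79 and 6.27 with vehicle and at 4.72, 4.52, 4.41 and 4.73 with doxycycline. Vehicle replicates 1 and 4 were the high arrays, while the other 2 vehicle arrays lay near or within the doxycycline range. The difference of -1.02 ± 0.41 (SE) was -0.62 without vehicle replicate 1. CXCL11, an interferon-induced CXCR3 ligand, differed by 0.27 ± 0.12 (SE), and CXCL2, a neutrophil attractant, by -0.16 ± 0.11 (SE).

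Among 17 other CC ligands 9 were above 0 and 8 below, with differences from -0.13 to 0.27. CCL11, an eosinophil attractant, differed by 0.27 ± 0.14 (SE), or 0.18 without vehicle replicate 1, and CCL8 by 0.22 ± 0.13 (SE). CCL2, the main monocyte attractant, differed by -0.12 ± 0.11 (SE) and CCL25, a CCR9 ligand, by -0.13 ± 0.16 (SE), which was -0.27 without vehicle replicate 1. Among 13 other chemokine receptors 8 were above 0 and 5 below. CXCR2, a neutrophil receptor, differed by 0.18 ± 0.15 (SE), or 0.039 without vehicle replicate 1, and CXCR6, found on effector lymphocytes, by 0.17 ± 0.15 (SE), or 0.11 without that array. CCR8 differed by -0.14 ± 0.17 (SE), or -0.21 without it, and CCR1, a receptor of myeloid cells, by -0.10 ± 0.12 (SE).

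Atypical receptors mostly bind their ligands without the usual G protein signal, and some of them remove chemokines. Of 6 measured, 2 were above 0 and 4 below. ACKR3, the second CXCL12 receptor, was at 6.40, 6.32, 7.02 and 6.76 with vehicle and at 6.78, 6.70, 7.61 and 7.47 with doxycycline. Doxycycline replicates 3 and 4 lay above every vehicle array and the other 2 inside the vehicle range, and the difference was 0.52 ± 0.23 (SE; limma adjusted p = 0.987). ACKR4, which scavenges CCL19 and CCL21 and was named for that role after its values were seen, differed by -0.14 ± 0.30 (SE). CCRL2 differed by -0.20 ± 0.12 (SE), ACKR2, a scavenger of inflammatory CC chemokines, by -0.23 ± 0.15 (SE), and PITPNM3, a described CCL18 receptor, by 0.14 ± 0.23 (SE), a sign that turned without vehicle replicate 4 (-0.074).

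Lymphotoxin and related signals maintain the stromal cells that make CXCL13, CCL19 and CCL21. Of 15 measured genes 7 were above 0 and 8 below. LTA, lymphotoxin alpha, differed by -0.28 ± 0.18 (SE) and LTBR, the lymphotoxin beta receptor, by -0.22 ± 0.15 (SE). The LTA difference was -0.17 without vehicle replicate 4, and that of LTBR -0.073 without vehicle replicate 3. TNFSF13B, the B cell survival factor BAFF, differed by 0.22 ± 0.15 (SE) and TNFRSF14, the LIGHT receptor, by 0.21 ± 0.18 (SE), or 0.10 without vehicle replicate 1. Of 27 homing adhesion and egress genes 18 were above 0 and 9 below, a share of 66.7% beside 55.5% of all genes. CYP7B1, an oxysterol hydroxylase in the synthesis of the GPR183 ligand that positions B cells, was at 4.36, 4.37, 4.46 and 4.58 with vehicle and at 4.99, 4.82, 4.86 and 4.70 with doxycycline. Beside CXCL14 it was the only gene of the 7 lists whose groups did not overlap. The CYP7B1 difference was 0.40 ± 0.12 (SE; limma adjusted p = 0.987). CH25H, which makes the oxysterol upstream of it, differed by -0.10 ± 0.15 (SE), or -0.23 without vehicle replicate 1, and turned to 0.018 without vehicle replicate 2. SELE, an endothelial selectin, differed by 0.28 ± 0.17 (SE), or 0.16 without vehicle replicate 1, and GCNT1, which builds selectin ligands, by -0.076 ± 0.13 (SE).

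Of 30 genes of chemokine receptor signalling 15 were above 0 and 15 below. GNAI2, the main inhibitory G protein alpha subunit of leukocytes, differed by -0.34 ± 0.15 (SE) and RAC1, a GTPase of the moving cell front, by -0.26 ± 0.16 (SE). Without vehicle replicate 1, the highest array for both genes, the GNAI2 difference was -0.23 and the RAC1 difference -0.14. RAP1A, a GTPase that activates integrins, differed by 0.35 ± 0.17 (SE) and RGS13, a regulator of G protein signalling in germinal centre B cells, by 0.25 ± 0.14 (SE). Without doxycycline replicate 1 the RAP1A difference was 0.21.

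**Figure D4:**
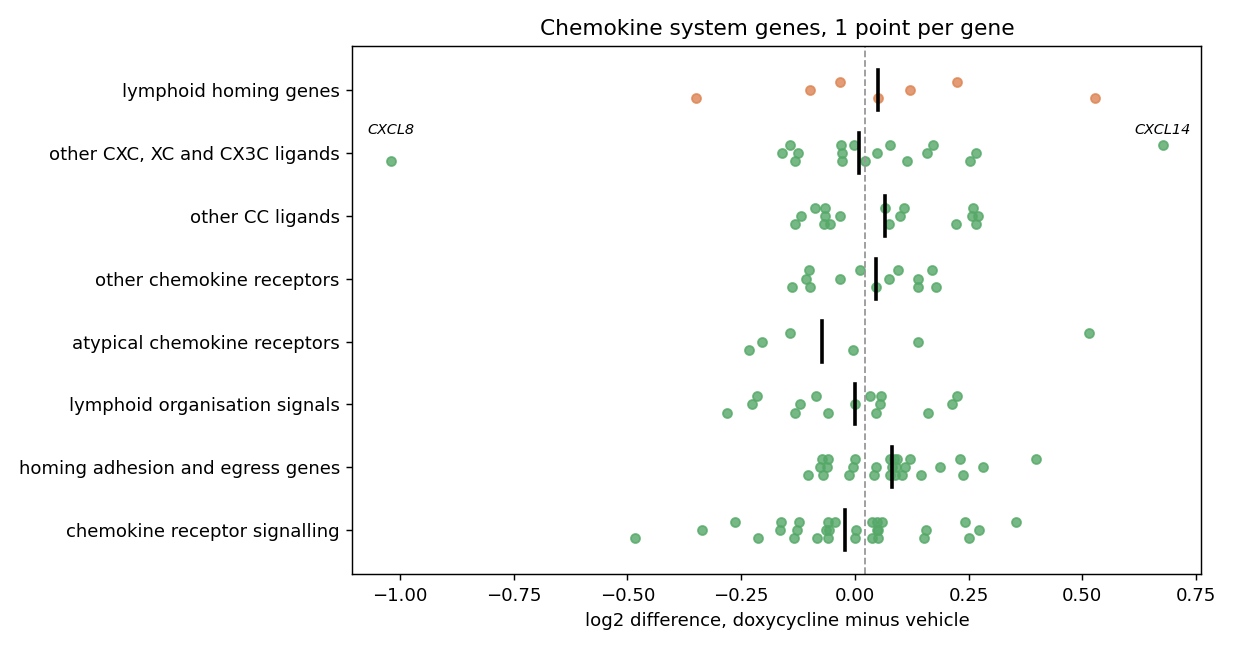
Log2 difference, doxycycline minus vehicle, of the 7 homing genes (orange) and of the genes in 7 lists of the chemokine system (green), 1 point per gene, with the list median as a black bar and the median of all genes as a dashed line. List medians lie between -0.073 and 0.082, and CXCL8 and CXCL14 lie farthest out.

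The genes whose pattern over the arrays was most like each member were found by the lower of Pearson's r over 8 arrays and over the 7 arrays without vehicle replicate 1. With 17490 genes compared over only 8 arrays, high values arise in number, and they are given as a description. CXCL13 was most like COL4A5, a basement membrane collagen chain (0.98), and RADIL, a RAP1 effector (0.95). CCL19 was most like LOC101928718 (0.97) and CIB3 (0.96), and CCL21 like RDH8, a retinol dehydrogenase (0.96), and ASAP2 (0.96). CXCL12 was most like SERTAD1 (0.97) and TGM7, a transglutaminase (0.96), and CCR7 like RIOK1, a kinase of ribosome assembly (0.95), and ECSIT (0.94). CXCR5 was most like CZIB (0.97) and NUBP1, an iron-sulphur cluster assembly factor (0.96). CXCR4 was most like ASF1B, a histone chaperone (0.97), and PIMREG, a mitotic gene (0.96). No member was among the closest genes of another: the highest likeness between members was 0.50, for CXCR5 and CXCR4.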

How the data were processed

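The deposited values are log2 expression values of 18565 probe sets on 8 arrays, made with RMA per the submitters' processing notes. No source used here gives its version or a genome build, and coordinates are left out. The platform annotation named a single gene for 17509 probe sets and none for 1056, and all 17509 gene identifiers were found among the RefSeq genes. For 16 genes with several probe sets the brightest was kept, leaving 17491 genes. Without scanner values signal over background was not assessed, and the number of arrays limits the precision.

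Groups came from the sample titles, which call the samples biological replicas. Doxycycline was compared with vehicle in limma 3.58.1 (lmFit and eBayes, R 4.3.3; tables read with data.table, version 1.17.8) with no covariate. Tests were two-sided, p-values were adjusted by Benjamini-Hochberg over all genes, and the threshold was 0.05. Ligand and receptor pairs were tested by exact permutation of the pairings. Fits and permutations were checked on simulated data. Members, the 7 chemokine system lists, the 9 marker lists and the alternatives were chosen with earlier results of these data known.

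Named genes were the 7 members, from each chemokine system list the 2 members with the smallest unadjusted p in each direction, the 2 genes most like each member, and at most 3 of the brightest of each marker list. MS4A1, CD3D, TYR, TYRP1 and ACKR4 were picked from their lists after their values were seen. The alternatives tried were a block for the replicate number, centred array medians, quantile or cyclic loess normalization, leaving out the dimmest 25% or 50% of genes, averaging the probe sets of a gene, testing all probe sets, array weights, a threshold of 0.1, the exact permutation test and each array left out. For the pairs, group means were also removed and the 2 farthest arrays left out. Figures were made in Python 3.11.15 (matplotlib 3.10.9).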

Additional observations from a re-analysis of the deposited data

Results flagged for a closer look

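In each group of 4 arrays, the highest or lowest array was checked for a gap to the nearest other array above 0.829 of the group's range, over the members, the named chemokine system genes and the list means. Of 106 groups 5 passed that limit, where chance flags about 1 in 20. No member was among them. CXCL14 in doxycycline replicate 4 was at 6.73, with the other 3 doxycycline arrays between 6.26 and 6.32. CXCR2 in vehicle replicate 1 was at 4.45, with the other 3 vehicle arrays between 4.97 and 5.06. RAC1 in vehicle replicate 1 was at 6.58, with the others between 6.02 and 6.11. SELE in doxycycline replicate 3 was at 4.91, with the others between 4.48 and 4.54. The B cell marker mean in doxycycline replicate 3 was 6.07, with the others between 6.15 and 6.17.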

How the results depend on the processing

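Under each alternative limma called 0 genes, members included, with smallest adjusted p-values from 0.808 to 1.00, and 528 to 998 genes had an unadjusted p under 0.05 (665 with 8 arrays, 998 without vehicle replicate 3). CXCL13, CCL19, CCL21, CXCR5 and CXCR4 kept their sign in each fit, with ranges of 0.42 to 0.62, 0.024 to 0.22, 0.14 to 0.31, -0.14 to -0.064 and -0.44 to -0.25. With single arrays left out CXCL12 ran from -0.16 to 0.042, CCR7 from -0.16 to 0.17, CH25H from -0.23 to 0.018 and PITPNM3 from -0.074 to 0.35. Leaving out 1 array moved the difference by over 1.5 times for 5 of 7 members, CXCL13 and CXCR4 being the exceptions, and for 21 of 28 named chemokine system genes. CXCL13 could not be fitted without the dimmest 50% of genes, where 3 of 6 members were above 0. With single arrays left out r ran from -0.91 to -0.75 for CXCL13 and CXCR5, from -0.060 to 0.37 for CCL19 and CCR7, from -0.34 to 0.026 for CCL21 and CCR7, and from -0.042 to 0.58 for CXCL12 and CXCR4. Without the 2 farthest arrays the CXCL13 and CXCR5 r was -0.74. The causes were not tested.

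The labels do not state that same-numbered arrays are pairs, so the numbers were not taken as pairs. Across all genes, the deviations of same-numbered arrays had correlations of -0.049, 0.15, 0.086 and 0.00293 for numbers 1 to 4. These cannot settle the pairing, since a correlation over all genes does not show how single genes deviate. With the replicate block limma called 0 genes, and 734 genes had an unadjusted p under 0.05 in place of 665. The unadjusted limma p of the CXCR4 difference of -0.35 rose to 0.0520 from 0.0366. This p also rose for CXCL13 (0.00724 from 0.00544), CXCL11 (0.0610 from 0.0462) and CYP7B1 (0.0163 from 0.00600). It fell for ACKR3 (0.00306 from 0.0411), CXCL8 (0.00713 from 0.0268), CXCL14 (0.00474 from 0.0130) and GNAI2 (0.0280 from 0.0410).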

Other observations

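CXCL12 and CXCR4 were ordered differently in the groups, a pattern noticed in the plotted values and not tested, since 4 arrays a group are too few for a correlation. Among the vehicle arrays, replicates 2 and 3 had the highest CXCL12 (7.62 and 7.61) and the highest CXCR4 (5.95 and 6.17). Among the doxycycline arrays, replicates 1 and 3 had the highest CXCL12 (7.49 and 7.56) and the lowest CXCR4 (5.45 and 5.33). ACKR3, the other CXCL12 receptor, was at 6.78 and 7.61 in those doxycycline arrays and at 6.70 and 7.47 in doxycycline replicates 2 and 4, so it did not follow the same split.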
